A study of Mus musculus with 6 samples.

Results

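Apol9a (ENSMUSG00000057346) and Apol9b (ENSMUSG00000068246) are nearly identical mouse genes of the apolipoprotein L family, close to each other on chromosome 15. Both were selected by name from the authors' deposited table, as 2 of its 28789 genes, and they were chosen by their FPKM values, since Apol9b showed one of the largest differences between cells with YOD1 overexpression and control cells. These values come from the same 6 libraries described here, so their levels in this contrast are given as a description, with no test. FPKM is the number of sequenced fragments scaled to transcript length and to the mapped fragments of the library.

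The study sequenced poly(A) RNA of TCMK1, a mouse renal tubular epithelial cell line, to look for pathways that respond to YOD1, a deubiquitinating enzyme, in cells given Ang II (angiotensin II, a peptide hormone that raises blood pressure). The YOD1 group held 3 samples of TCMK1 cells with YOD1 overexpression and Ang II, and the Ctrl group held 3 samples of TCMK1 cells of control genotype with Ang II. Cells without Ang II were not analysed here. The sources used here do not give how YOD1 was introduced, whether Ctrl cells carried an empty vector, whether either line was a clone, or the dose and duration of Ang II. The labels do not say whether the samples are separate cultures. The p-values therefore reflect the spread between these libraries alone, and that spread may be technical.

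Apolipoprotein L proteins bind lipids and, in the mouse, are mostly intracellular. The human family includes APOL1, a secreted trypanosome-killing factor that has no direct counterpart in mice. Mouse APOL9 proteins are induced by interferon, bind the membrane lipid phosphatidylethanolamine, and interact with the LC3 and GABARAP proteins that mark autophagosomes. Type I interferon acts through the receptor chains IFNAR1 and IFNAR2 and the kinases JAK1 and TYK2, and activates transcription factors that bind repeated GAAA elements in front of interferon-stimulated genes.

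The promoter windows of both genes are shown because both carry such a repeat, and that of Apol8 is set beside them. The windows come from RefSeq on build GRCm38.p6 and run from 250 bases before to 50 bases after the annotated start. Capitals mark the bases that match a paired GAAA motif (GAAA, any 2 bases, GAAA) read on the other strand. The Apol9a window is chr15:77411031-77411330 on the minus strand, and the Apol9b window is chr15:77728822-77729121 on the plus strand. The window of Apol8, a family member nearby, is chr15:77756961-77757260 on the minus strand and holds 0 matches.
Apol9a: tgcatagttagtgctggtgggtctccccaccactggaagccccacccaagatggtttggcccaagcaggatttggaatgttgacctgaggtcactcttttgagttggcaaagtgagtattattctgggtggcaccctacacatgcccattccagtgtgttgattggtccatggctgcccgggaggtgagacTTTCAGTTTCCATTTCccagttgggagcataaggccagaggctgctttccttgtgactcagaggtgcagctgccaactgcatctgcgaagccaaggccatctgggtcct
Apol9b: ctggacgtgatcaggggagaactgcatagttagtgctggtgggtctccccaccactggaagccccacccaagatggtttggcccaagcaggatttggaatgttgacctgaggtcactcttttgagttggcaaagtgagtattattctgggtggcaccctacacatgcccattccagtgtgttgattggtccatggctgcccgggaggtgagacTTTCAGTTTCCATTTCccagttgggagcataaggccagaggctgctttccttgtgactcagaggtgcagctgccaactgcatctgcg
Apol8: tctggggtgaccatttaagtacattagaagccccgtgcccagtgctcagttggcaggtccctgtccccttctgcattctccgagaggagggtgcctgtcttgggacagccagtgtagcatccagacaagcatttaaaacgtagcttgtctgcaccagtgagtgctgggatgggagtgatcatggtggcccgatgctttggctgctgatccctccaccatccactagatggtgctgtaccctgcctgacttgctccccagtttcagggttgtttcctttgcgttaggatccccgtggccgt

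Each of the Apol9 windows held 2 matches that overlapped by 4 bases and together spanned 16 bases. The span ran from position -59 to -44 relative to the annotated start in Apol9a and from -37 to -22 in Apol9b. The annotated starts are offset by 22 bases, and over the 278 bases that both windows share the sequences were identical at all 278 positions. Read on the other strand with 5 bases on either side, and with the matched bases in capitals, the element was the same in both genes.
Apol9a: actggGAAATGGAAACTGAAAgtctc
Apol9b: actggGAAATGGAAACTGAAAgtctc

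With both strands searched, 1079 of 27025 genes with a RefSeq window held the paired GAAA motif, or 3.99%, and 72 genes, or 0.266%, held 2 or more matches. In a list of 69 symbols of interferon-stimulated genes, 25 of the 54 with a window held it, or 46.3%, and 12 held 2 or more. The windows of the pair held 0 matches to TTCNNNGAA, a sequence bound by STAT dimers, which 9.55% of all genes with a window held. A match describes letters in a window and does not show that a factor binds there.

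Of the other Apol genes on chromosome 15 with a window, Apol7c and Apol7e held 2 matches each, and Apol10a, Apol10b, Apol11a and Apol11b held 1 each. Apol7a, Apol7b and Apol8 held 0.

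**Figure D1:**
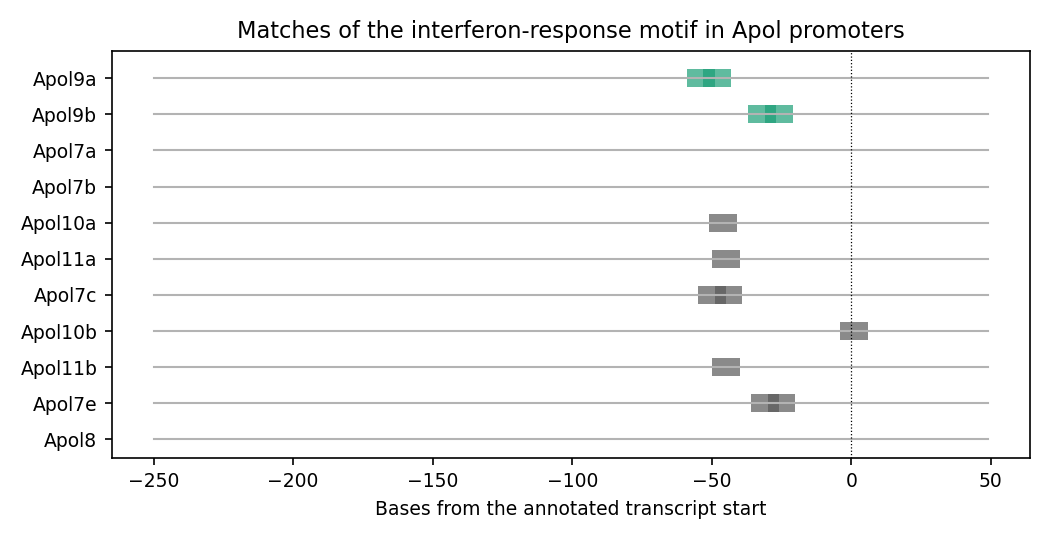
Position of matches to the paired GAAA motif, on either strand, in the promoter windows of 11 Apol genes, in bases from the annotated start of each gene (x axis), with one gene per row. Apol9a and Apol9b stand at the top with 2 overlapping matches each, and Apol7a, Apol7b and Apol8 have 0.

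The transcripts are also close in sequence. The annotated Apol9a transcript of 1530 nt and the Apol9b transcript of 1529 nt were identical at 1506 of 1530 aligned positions (98.4%), with 23 mismatches and 1 gap, and the longest run without a difference was 446 nt. Of all 50-nt stretches of Apol9a, 57.5% also occurred in Apol9b, and of all 150-nt stretches 28.1% did. In the other Apol genes 0% of these stretches occurred. Fragments that fall wholly in the shared stretches cannot be assigned to one gene by sequence, so the split between Apol9a and Apol9b is uncertain, and their summed FPKM is given beside each gene.

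Read counts were not analysed here, but among 12989 genes with 1 annotated transcript the FPKM values times length piled up at one step in each library, the size that 1 counted fragment would have. By these steps the YOD1 libraries had 0.802 to 0.842 times the depth of Ctrl library 1, and the Ctrl libraries 0.975 to 1.02 times, which is a rough estimate. The cells carried epithelial markers in both groups, with Krt18 at 595 to 820 FPKM in YOD1 cells and 482 to 587 FPKM in Ctrl cells, and 10 of 11 such markers passed the filter. The proximal-tubule transporter Slc34a1 was listed at 0 in all 3 YOD1 libraries and in 2 of 3 Ctrl libraries. Of 10 leukocyte markers 5 were tested and 0 were called in either direction, and they summed to 61.1 to 86.4 FPKM in YOD1 cells and 57.2 to 68.9 FPKM in Ctrl cells. Ptprc, which defines leukocytes, stayed at or below 0.0708 FPKM. Cd68, Cd14 and Cd74 were between 10.5 and 31.3 FPKM over both groups, which overlapped. In Lyz2 and Adgre1, 2 of the 10, all YOD1 libraries lay above all Ctrl libraries, as in 9.77% of all tested genes. Lyz2 stood at 10.5 to 18.7 FPKM in YOD1 cells and 1.47 to 9.04 FPKM in Ctrl cells (adjusted p = 0.158, limma). Adgre1 was at or below 0.165 FPKM. Of the 11 epithelial markers, 2 lay above in this way and 3 lay below, against 19.1% below over all tested genes. The part of these markers in the levels of the pair was not tested. Endothelial markers summed to 1.24 to 2.10 FPKM in YOD1 cells and 0.674 to 1.33 FPKM in Ctrl cells, and fibroblast markers summed to 6.40 to 14.1 FPKM in YOD1 cells and 12.5 to 15.5 FPKM in Ctrl cells. Of the 4 endothelial markers 1 had all YOD1 libraries above all Ctrl libraries, and of the 7 fibroblast markers 1 did and 1 had all below. Yod1, the targeted gene, stood at 1.73, 7.56 and 1.86 FPKM in YOD1 libraries 1, 2 and 3, against 0.842, 0.757 and 0.684 FPKM in Ctrl libraries 1, 2 and 3. Its level was higher in every YOD1 library than in any Ctrl library, as the labels have it, but limma gave an adjusted p of 0.141. Transcripts assigned to the ribosomal RNA gene Rn18s-rs5 were also higher in YOD1 libraries, at 7638 to 12732 FPKM against 1324 to 2351 FPKM in Ctrl libraries. This gene was called higher (adjusted p = 0.0063, limma), and its part in the levels of the pair was not tested.

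Apol9b stood at 10.06, 60.2 and 12.2 FPKM in YOD1 libraries 1, 2 and 3, against 0.653, 1.47 and 1.23 FPKM in Ctrl libraries 1, 2 and 3. Its mean was 27.5 ± 28.3 FPKM in YOD1 cells and 1.12 ± 0.422 FPKM in Ctrl cells (SD, n = 3 each), a ratio of 24.5. The groups did not overlap, YOD1 library 2 was far above the other YOD1 libraries, and the Ctrl libraries were near the lower limit of the filter.

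Apol9a stood at 2.40, 19.3 and 3.54 FPKM in YOD1 libraries 1, 2 and 3, against 0.115, 0.0663 and 0.172 FPKM in Ctrl libraries 1, 2 and 3. Its mean was 8.41 ± 9.44 FPKM in YOD1 cells and 0.118 ± 0.0531 FPKM in Ctrl cells (SD, n = 3 each), a ratio of 71.3. The groups did not overlap here either, and the same YOD1 library was the high one. Of all 11483 tested genes, 9.77% had all 3 YOD1 libraries above all 3 Ctrl libraries and 19.1% had all 3 below. As the libraries are bulk samples, a larger share of cells that express the pair and more of its RNA per cell cannot be told apart.

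Both genes passed the filter, which asked for 1 FPKM or more in 3 or more of the 6 libraries, Apol9a only through the YOD1 libraries and Apol9b with 5 libraries. The authors' deposited table marks both as significantly up, with q = 3.00e-08 for Apol9a and q = 1.57e-05 for Apol9b. These q-values come from the values by which the pair was chosen, so they are no separate support for its rise. The labels and file headers do not name the authors' test.

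**Figure D2:**
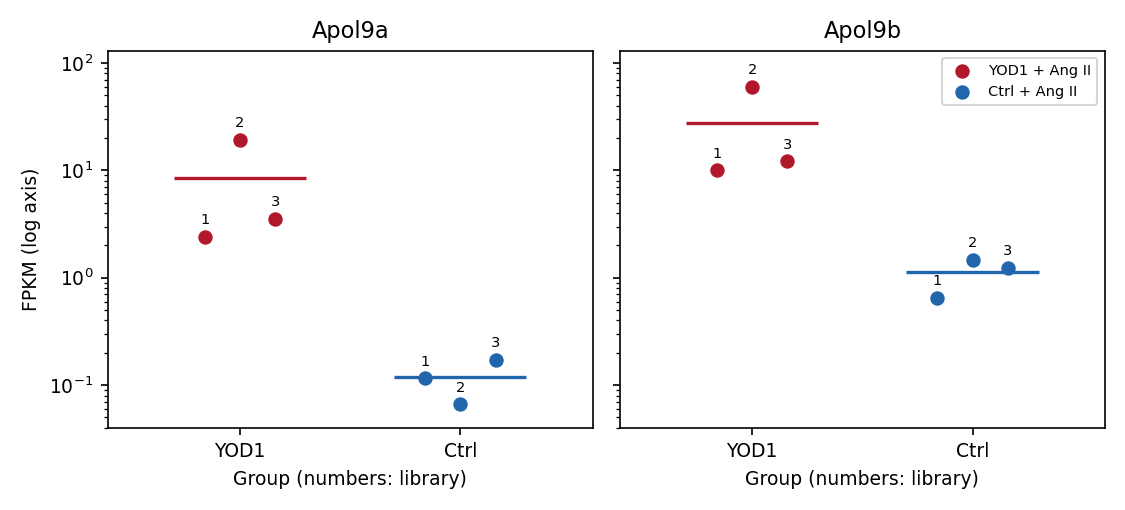
FPKM (log axis) of Apol9a (left) and Apol9b (right) in the 3 YOD1 and 3 Ctrl libraries, one point per library with its number and a line at the group mean. In both panels the YOD1 points lie above the Ctrl points, and YOD1 library 2 is the highest, at 19.3 FPKM for Apol9a and 60.2 FPKM for Apol9b.

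In FPKM, which is per length, Apol9b was the higher of both genes in all 6 libraries. The order of levels from high to low was Apol9b in YOD1 cells, Apol9a in YOD1 cells, Apol9b in Ctrl cells and Apol9a in Ctrl cells. The first and second of these overlapped, at 10.06 to 60.2 and 2.40 to 19.3 FPKM, while the lowest Apol9a value in YOD1 cells lay above the highest Apol9b value in Ctrl cells, 1.47 FPKM.

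The summed FPKM of the pair does not depend on how fragments were split between the copies, and it was 12.5, 79.5 and 15.7 in YOD1 libraries 1, 2 and 3, against 0.769, 1.54 and 1.41 in Ctrl libraries 1, 2 and 3. Its mean was 35.9 ± 37.8 FPKM in YOD1 cells and 1.24 ± 0.413 FPKM in Ctrl cells (SD, n = 3 each), a ratio of 29.0. As each gene separated the groups, the sum had to separate them too.

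Apol9a made up 19.3%, 24.3% and 22.5% of the sum in YOD1 libraries 1, 2 and 3, against 15.0%, 4.31% and 12.3% in Ctrl libraries 1, 2 and 3. The share was higher in every YOD1 library than in any Ctrl library. The Ctrl values rest on few fragments: in steps of 1 fragment, Apol9a came to 52.6, 403 and 75.0 in YOD1 libraries 1, 2 and 3, against 3.00, 1.76 and 4.38 in Ctrl libraries 1, 2 and 3. Apol9b came to 220.5, 1256 and 258 steps in YOD1 libraries, against 17.0, 39.0 and 31.3 steps in Ctrl libraries. With so few fragments and so many shared stretches, the ratio of 71.3 for Apol9a is less certain than the ratio of 29.0 for the sum.

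Which copy differed more depended on the scale. On the log2(FPKM + 1) scale, the difference between YOD1 and Ctrl cells was 3.31 for Apol9b (pooled SD within groups 0.98) and 2.60 for Apol9a (0.98), which ranked them 3 and 8 among the 11483 tested genes. With 0.1 FPKM added in place of 1, the differences were 4.07 for Apol9b and 4.71 for Apol9a. By the plain ratio of group means, Apol9a ranked 2 and Apol9b ranked 4. For the sum the difference was 3.57 with 1 FPKM added (pooled SD 1.02) and 4.28 with 0.1 FPKM added.

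Within the YOD1 group the pair varied widely, and the copies varied together. YOD1 library 2 held 6.50 times the mean of YOD1 libraries 1 and 3 for Apol9a, rank 7 of 11483 tested genes, and 5.41 times for Apol9b (rank 15). The median of this ratio over all tested genes was 1.05. For Yod1 itself, YOD1 library 2 held 4.21 times the mean of the other YOD1 libraries, and its part in the level of the pair was not tested. For Rn18s-rs5 the ratio was 1.40.

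As the groups did not overlap, leaving out YOD1 library 2 could not bring them together, but it made the differences smaller. The differences on the log2(FPKM + 1) scale were then 2.53 for Apol9b, 1.81 for Apol9a and 2.76 for the sum. YOD1 libraries 1 and 3 held 8.98 and 10.9 times the Ctrl mean of Apol9b, and library 2 held 53.7 times. YOD1 libraries 1 and 3 held 20.3 and 30.0 times the Ctrl mean of Apol9a, and library 2 held 164 times.

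**Figure D3:**
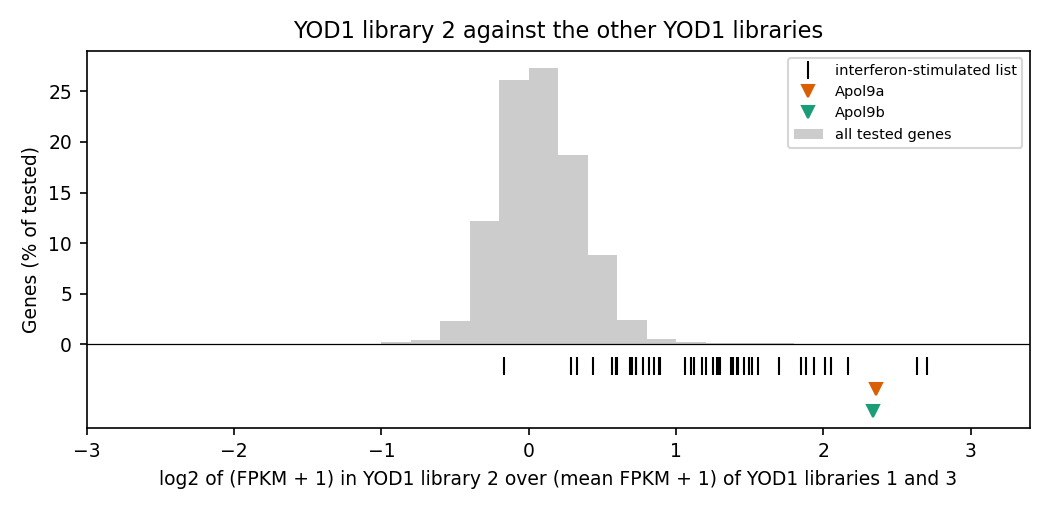
Distribution over all 11483 tested genes (grey bars, percent of genes on the y axis) of the log2 ratio of YOD1 library 2 to the mean of YOD1 libraries 1 and 3, with 1 FPKM added to both (x axis). Under the bars, ticks mark the 43 tested genes of the interferon-stimulated list and triangles mark Apol9a and Apol9b, which lie at the far right; 42 of the 43 list genes had their highest YOD1 value in library 2.

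The other members of the family stayed low in both groups. Of 12 other genes with an Apol or Apold symbol, 9 had values, and 0 of these passed the filter, so none was tested. Apol8 was the highest of them, at 0.633, 0.525 and 0.699 FPKM in YOD1 libraries 1, 2 and 3, against 0.492, 0.400 and 0.638 FPKM in Ctrl libraries 1, 2 and 3. These ranges overlapped, and YOD1 library 2 was the lowest YOD1 library rather than the highest. Apold1, a related gene of endothelial cells, lay between 0.0845 and 0.194 FPKM in YOD1 cells and between 0.134 and 0.241 FPKM in Ctrl cells. Apol6, Apol7a, Apol7c, Apol7d, Apol10a, Apol10b and Apol11b were at or below 0.155 FPKM in every library, although 4 of these genes (Apol7c, Apol10a, Apol10b and Apol11b) hold the paired GAAA motif in their promoter windows.

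Apol9a and Apol9b lie on opposite strands of chromosome 15, with 17 annotated genes between them, 8 of them Apol genes. Of the 6 nearest other genes with values on each side, 8 of 12 were tested, and limma at an adjusted p of 0.05 called 0 higher and 0 lower, with 0 higher and 1 lower at an unadjusted p of 0.05. Over all tested genes, 0.444% were called higher and 0.0348% lower, and 7.87% were higher and 13.0% lower at an unadjusted p of 0.05, so 1 of 8 (12.5%) is near the background. Among them Myh9, the non-muscle myosin heavy chain, averaged 86.3 ± 6.82 FPKM in YOD1 cells and 87.4 ± 8.50 FPKM in Ctrl cells. Txn2, mitochondrial thioredoxin, averaged 47.8 ± 4.31 FPKM in YOD1 cells and 41.8 ± 3.43 FPKM in Ctrl cells (SD, n = 3 each). Rbfox2, a splicing factor, averaged 17.3 ± 3.32 FPKM in YOD1 cells and 15.9 ± 2.49 FPKM in Ctrl cells. The adjusted p by limma was 0.952 for Myh9, 0.390 for Txn2 and 0.740 for Rbfox2.

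The neighbour with an unadjusted p under 0.05 was Mb (myoglobin), at 0.233, 0.175 and 21.9 FPKM in YOD1 libraries 1, 2 and 3, against 24.2, 17.6 and 15.3 FPKM in Ctrl libraries 1, 2 and 3. Its adjusted p was 0.175 by limma, and without YOD1 library 3 it was 3.04e-05. Mb was thus near 0 in YOD1 libraries 1 and 2, a pattern that neither copy of Apol9 showed. Of the remaining tested neighbours, Zfp647, 1110038F14Rik, Foxred2 and the translation initiation factor subunit gene Eif3d had log2 differences between -0.35 and 0.18.

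**Figure D4:**
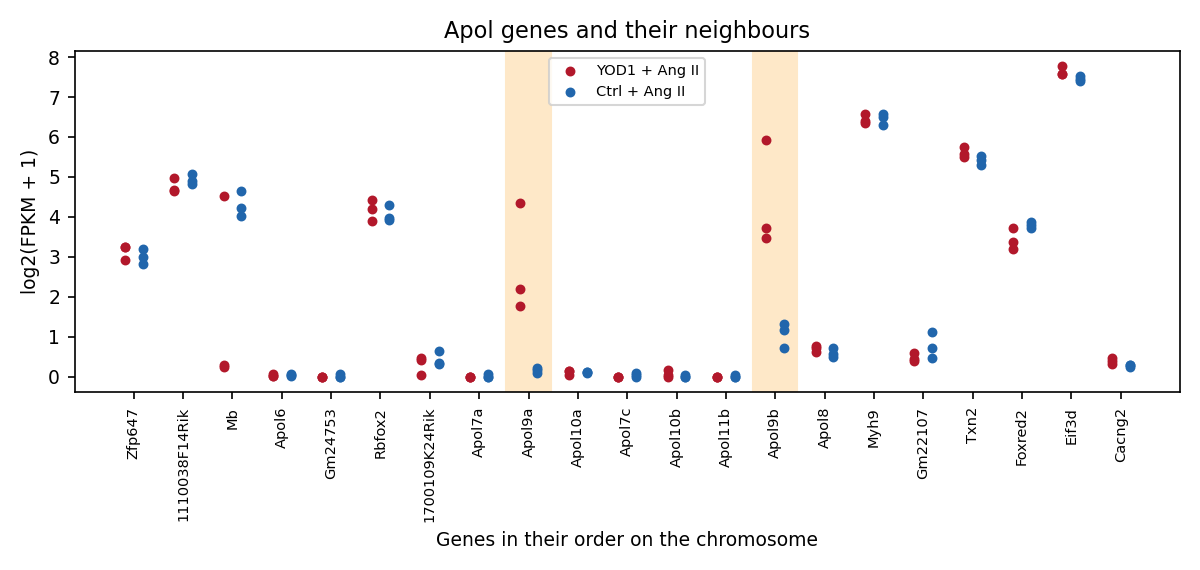
log2(FPKM + 1) in each library (y axis), with YOD1 points left of Ctrl points, for 21 genes with values in their order along chromosome 15 (x axis), from the neighbours on one side through the Apol genes to the neighbours on the other. Shaded columns mark Apol9a and Apol9b, whose groups are apart (means of 8.41 against 0.118 FPKM and 27.5 against 1.12 FPKM), while the points of Apol8 and Myh9 overlap between the groups.

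The pathway that is known to induce the pair was then followed by role, with lists that were drawn up with earlier results of these data known. Among the ligands, Ifnb1, the gene of interferon beta, was listed at 0, 0 and 0.281 FPKM in YOD1 libraries 1, 2 and 3 and at 0 in all 3 Ctrl libraries. Ifnl3, a type III interferon gene, was listed at 0 in all 3 YOD1 libraries and above 0 in 1 Ctrl library, at 0.00917 FPKM. Both lie at the lower limit of what these libraries measure, and the other 8 listed ligand genes had no values. These values therefore do not show whether the cells met interferon.

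Of 18 tested genes of interferon signalling, limma called 1 higher, Irf7, and 0 lower, against 0.444% and 0.0348% over all tested genes. At an unadjusted p of 0.05 by limma, 3 (16.7%) were higher and 4 (22.2%) lower, against 7.87% and 13.0% over all tested genes. In 4 of the 18 all YOD1 libraries lay above all Ctrl libraries, and in 5 all lay below, among them Jak1 and Tyk2. Over all tested genes these shares were 9.77% and 19.1%. The median log2 difference of the list was -0.09, against -0.10 over all tested genes. The receptor genes were not higher in YOD1 cells. Ifnar1 averaged 12.7 ± 4.03 FPKM in YOD1 cells and 14.9 ± 2.02 FPKM in Ctrl cells, and Ifnar2 averaged 12.5 ± 1.18 FPKM in YOD1 cells and 13.6 ± 1.09 FPKM in Ctrl cells (SD, n = 3 each). Means of Ifngr1, Ifngr2, Ifnlr1 and Il10rb, which encode chains of the type II and type III receptors, were also lower in YOD1 cells, with no call. The kinase genes Jak1, Tyk2 and Jak2 averaged 5.73, 8.44 and 1.14 FPKM in YOD1 cells, against 7.76, 10.97 and 1.71 FPKM in Ctrl cells, again with no call.

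Of the transcription factors, Irf9 and Stat2, which carry the interferon signal to the nucleus, were highest in YOD1 library 2, as the pair was. Irf9 stood at 9.87, 25.4 and 9.82 FPKM in YOD1 libraries 1, 2 and 3, against 4.55, 5.68 and 5.94 FPKM in Ctrl libraries 1, 2 and 3, with no overlap and an adjusted p of 0.115 by limma. Stat2 stood at 6.60, 14.7 and 6.47 FPKM in YOD1 libraries, against 8.14, 9.18 and 5.91 FPKM in Ctrl libraries. For Stat2 the groups overlapped, since YOD1 libraries 1 and 3 lay below 2 of the 3 Ctrl libraries. Irf1, Irf3 and Stat3 averaged 23.6, 16.9 and 7.02 FPKM in YOD1 cells and 25.0, 15.5 and 9.57 FPKM in Ctrl cells, with no call.

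Irf7, a factor that amplifies the interferon response and is itself interferon-induced, stood at 26.9, 93.3 and 38.2 FPKM in YOD1 libraries 1, 2 and 3, against 2.73, 3.19 and 3.86 FPKM in Ctrl libraries 1, 2 and 3. It rose by 3.47 ± 0.37 (SE) on the log2(FPKM + 1) scale, with an adjusted p of 0.0053 by limma. Among the feedback inhibitors, Usp18, which removes ISG15 and restrains IFNAR2, stood at 7.84, 55.9 and 8.47 FPKM in YOD1 libraries, against 1.12, 1.45 and 1.51 FPKM in Ctrl libraries (adjusted p = 0.0759, limma). Socs3 averaged 7.95 ± 0.957 FPKM in YOD1 cells and 8.21 ± 1.22 FPKM in Ctrl cells, and Socs1 was below the filter.

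Of the 69 symbols of the interferon-stimulated list, among them Ddx58 and Rigi for the same gene, 67 had values and 43 were tested. Limma called 7 of them higher and 0 lower, against 0.444% higher and 0.0348% lower over all tested genes. The median log2 difference was 1.03, against -0.10 over all tested genes. Genes that stand in both lists include Irf7, Irf9, Stat2 and Usp18. The called genes were Irf7, the membrane proteins Ifitm3 (2.27), Bst2 (1.37) and Ifi27 (1.89), the related Ifi27l2a (means of 2.36 FPKM in YOD1 cells and 0.164 FPKM in Ctrl cells), the secreted galectin-binding protein gene Lgals3bp (1.92) and the immunoproteasome subunit gene Psmb8 (1.45), with log2 differences in parentheses and adjusted p of 0.0041 to 0.0432 by limma. Ifi27l2a passed the filter only through the YOD1 libraries. In 29 of the 43, or 67.4%, all YOD1 libraries lay above all Ctrl libraries, against 9.77% of all tested genes. Of the 4 genes with all Ctrl libraries below 1 FPKM, as Apol9a had, 1 was called. Those 4 could pass the filter only with all YOD1 libraries above all Ctrl libraries, so their separation was fixed in advance. Of the other 39 genes 6 were called, with a median of 0.72, and in 25 all YOD1 libraries lay above all Ctrl libraries.

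Isg15, a ubiquitin-like modifier, had the third largest difference in the list, 2.56, at 23.4, 111.6 and 33.3 FPKM in YOD1 libraries 1, 2 and 3, against 6.37, 6.03 and 7.91 FPKM in Ctrl libraries 1, 2 and 3 (adjusted p = 0.0501, limma). The differences of Apol9b (3.31) and Apol9a (2.60) thus lay beside those of Irf7 (3.47), Usp18 (2.84) and Isg15. Of the 43 list genes, 42 (97.7%) were highest in library 2 among the YOD1 libraries, against 39.2% of all tested genes. The median ratio of that library to the other YOD1 libraries was 2.48 in the list, against 6.50 and 5.41 for the pair. Some list genes had ratios as large: Oas3 (7.82) and Usp18 (6.86) lay above both copies. Rtp4 (6.08), Zbp1 (5.90) and Oasl2 (5.76) lay between the copies.

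The number of calls in the list depended on single libraries. Without Ctrl library 1 it was 3 of the 30 genes called higher over all tested genes, and without Ctrl library 2 it was 3 of 17. In both cases the 3 were Ifi27, Ifitm3 and Irf7. Without YOD1 library 1 it was 11 of 40, and without YOD1 library 2 it was 13 of 46, with a list median of 0.57. With no filter on low values it was 0, and 0 genes were called over all genes. There, 30 list genes had an unadjusted p under 0.05 by limma and all 30 were higher. Over all 28789 genes, 1411 were higher and 2016 lower at this p. After correction for transcript length and GC content the count was 4 of 26, and with median-ratio scaling 12 of 141.

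**Figure D5:**
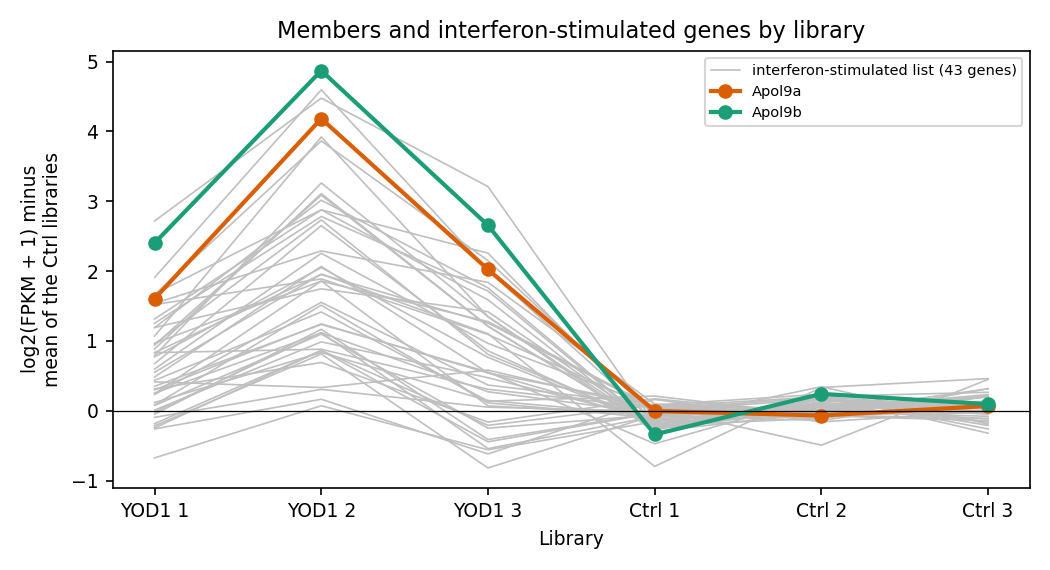
Difference of log2(FPKM + 1) from the mean of the Ctrl libraries (y axis) in each of the 6 libraries (x axis, YOD1 at the left), for Apol9a, Apol9b and the 43 tested genes of the interferon-stimulated list in grey; lines join the values of a gene. The pair runs along the upper edge of the list and peaks, as 42 of the 43 list genes do among the YOD1 libraries, in YOD1 library 2.

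The genes whose profile was most like that of the pair were found by Pearson correlation of log2(FPKM + 1) over the 6 libraries, among the 11482 other tested genes. For Apol9b the first 8 were Oas1g (r = 0.997), Emc8 (0.995), Oas1a (0.994), Irx1 (0.993), Lgals3bp (0.993), Usp18 (0.992), Isg15 (0.991) and Pdcd2l (0.991), and Apol9a had rank 10 at 0.988. For Apol9a they were Irx1 (0.997), Usp18 (0.997), Isg15 (0.996), Trir (0.992), Oas1g (0.989), Oas1a (0.989), Apol9b (0.988) and Zbp1 (0.988). Oas1a and Oas1g encode oligoadenylate synthetases, sensors of double-stranded RNA, and Zbp1 a sensor of Z-form nucleic acid. These points share 6 libraries, 1 of which, YOD1 library 2, stands apart, and the libraries fall into the groups that chose the pair, so the coefficients are a description.

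Among the 100 most similar genes, the interferon-stimulated list held 21 for Apol9b and 22 for Apol9a. That list makes up 43 of the 11483 tested genes. As the similarity follows the contrast that chose the pair, these counts are a description too. Irx1 and Zbp1, like Apol9a, passed the filter only through the YOD1 libraries. The levels of the similar genes spanned a wide range of change. Oas1a stood at 25.1, 91.6 and 37.8 FPKM in YOD1 libraries 1, 2 and 3, against 8.64, 11.8 and 11.1 FPKM in Ctrl libraries 1, 2 and 3, a log2 difference of 1.99. Emc8, a subunit of the membrane protein insertase of the endoplasmic reticulum, stood at 18.8, 23.2 and 18.6 FPKM in YOD1 libraries, against 13.1, 13.9 and 13.9 FPKM in Ctrl libraries, a log2 difference of 0.53. Irx1, a homeobox gene of nephron patterning, stood at 1.01, 2.01 and 1.10 FPKM in YOD1 libraries, against 0.440, 0.420 and 0.429 FPKM in Ctrl libraries, a log2 difference of 0.70. A high r therefore says that a profile has the same shape over the libraries, not that it differs as much as Apol9b.

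None of the tested genes of a list around LC3, GABARAP and phosphatidylethanolamine was called. Their RNA levels do not give the amount of the lipid or of the proteins. Of 13 listed genes with values for LC3 and GABARAP proteins, phosphatidylethanolamine synthesis and the phosphatidylethanolamine-binding protein gene Pebp1, 12 were tested, and limma called 0 higher and 0 lower, with 1 higher and 0 lower at an unadjusted p of 0.05. That 1 of 12 (8.33%) is near the 7.87% of all tested genes that were higher at this p, and over all tested genes 0.444% were called higher and 0.0348% lower. The median log2 difference was -0.17, against -0.10 over all tested genes. Map1lc3b averaged 28.6 ± 3.61 FPKM in YOD1 cells and 37.7 ± 9.32 FPKM in Ctrl cells, and Gabarap averaged 113 ± 7.23 FPKM in YOD1 cells and 134 ± 23.7 FPKM in Ctrl cells (SD, n = 3 each). Pisd, the mitochondrial enzyme that makes phosphatidylethanolamine from phosphatidylserine, averaged 19.7 ± 0.400 FPKM in YOD1 cells and 19.3 ± 1.44 FPKM in Ctrl cells.

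Pebp1 stood at 360, 336 and 394 FPKM in YOD1 libraries 1, 2 and 3, against 248, 256 and 288 FPKM in Ctrl libraries 1, 2 and 3. All YOD1 libraries lay above all Ctrl libraries, by 0.46 on the log2 scale with an adjusted p of 0.129 by limma, and unlike the pair YOD1 library 2 was the lowest YOD1 library.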

How the data were processed

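Poly(A) RNA of 6 TCMK1 samples, 3 YOD1 and 3 Ctrl, underwent paired-end sequencing (Illumina NovaSeq), per the labels' protocols. The table that the authors deposited gives FPKM by gene and library, per the file headers. It also holds the authors' fold ratio between groups, the log2 of that ratio, and their p-value and q-value. Bowtie 0.12.2, StringTie 1.3.0, HISAT2 2.0 and build mm8 are named in the submitters' processing notes, without saying what each was used for. The strand setting and the handling of multiply mapped fragments are not given in the sources used here. Of the table's gene IDs, 1484 are absent from GENCODE M21, so no coordinates of expression values are printed. Transcripts of the pair were compared in GENCODE M21, and promoter windows came from the RefSeq table on GRCm38.p6.

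The 11483 of 28789 genes that reached 1 FPKM in 3 or more libraries were fitted with limma 3.58.1 in R 4.3.3 on log2(FPKM + 1), with an intensity trend, two-sided, with Benjamini-Hochberg adjustment over all tested genes at 0.05; this scale understates the change of low genes. The fit was tested on simulated data. With 3 libraries a group, exact permutation p-values cannot go under 0.1 and were not used. Alternatives were no filter, a filter at 5 FPKM, a pseudocount of 0.1 FPKM, median-ratio scaling, a replicate block, leaving out each library, and, chosen after seeing the data, a correction for transcript length and GC content (known for 99.2% of tested genes). The members and lists were chosen with earlier results of these data known. Genes named are the pair, every Apol gene, signalling genes by role, the neighbours, called members and the 4 largest differences of the interferon-stimulated list, and the 8 most similar genes of each member; Pebp1 and the other partner genes named were chosen after their values were seen. Values of some listed genes are not reported here.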

Additional observations from a re-analysis of the deposited data

How the results depend on the processing

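The pair was chosen for its rise and its groups did not overlap, so leaving out a library could not reverse the difference. The choice of filter and the replicate block cannot change it. That the pair was higher in YOD1 cells under every setting that kept it is therefore a description. A filter at 5 FPKM left Apol9a out. The Apol9a log2 difference was 4.71 with a pseudocount of 0.1, and leaving out each library gave 1.81 to 3.10 for Apol9a, 2.53 to 3.76 for Apol9b and 2.76 to 4.05 for the sum, lowest without YOD1 library 2. Against 51 genes called higher and 4 lower by limma, no filter gave 0 and 0 (1411 higher and 2016 lower at an unadjusted p of 0.05), with 0 in both interferon lists. Median-ratio scaling gave 141 higher and 8 lower, 12 in the interferon-stimulated list and 2 (Irf7 and Usp18) in the signalling list, whose median was then -0.00016, while the partner list's median was -0.079. Correction for length and GC content gave 26 higher and 7 lower, 4 in the interferon-stimulated list and a partner median of -0.085. Leaving out each library in turn gave 17 to 145 higher and 1 to 97 lower, 3 to 13 calls in the interferon-stimulated list, 1 to 2 in the signalling list, 0 to 1 among neighbours (Mb, without YOD1 library 3), signalling medians of -0.213 to -0.0444 and partner medians of -0.23 to -0.0845. The cause of these shifts was not tested.

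Same-numbered YOD1 and Ctrl libraries had correlations of their deviations of 0.296, -0.121 and -0.112, and only number 1 was best matched with itself, so the numbers were not taken to pair the samples. The fit with the replicate block gave 33 higher and 8 lower. Of the alternative values, 155 stayed within their limits, 35 moved and 0 reversed. Depth limits Apol9a in Ctrl cells, where it rests on a few fragments.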
